A study of Mus musculus with 8 samples.

Results

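The genes described here are those with which the aldosterone-sensitive end of the nephron takes up sodium and secretes potassium. They were chosen by gene name: Scnn1a, Scnn1b, Scnn1g, Sgk1, Nr3c2, Hsd11b2, Nedd4l, Kcnj1, Kcnma1 and Fxyd4, which are 10 of the 35275 genes in the table, and each name matched a single row. Kidney RNA was compared between 4 male Ctrp1-/- mice (KO), in which both copies of C1qtnf1 are disrupted, and 4 wild-type (WT) littermates. C1qtnf1 encodes CTRP1, a hormone-like protein that cells secrete. Both groups were C57BL/6J, aged 40 weeks, and had eaten a high-fat diet with 60% of its calories from fat since 6 weeks of age. The KO allele came from 129S5 cells, was crossed to C57BL/6J for more than 6 generations, and lacks 679 bp, of which 162 bp belong to the 3′ UTR and the rest is coding sequence in exon 4. Each library held the whole left kidney of a different mouse, with 17884140 to 20344859 reads, so that fewer cells of a type and less RNA per cell cannot be told apart.

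Aldosterone, a steroid of the adrenal cortex, enters principal cells of the connecting tubule and collecting duct and binds the mineralocorticoid receptor. The enzyme HSD11B2 inactivates glucocorticoids in the same cells, which would otherwise occupy that receptor. The receptor raises transcription of the kinase gene Sgk1, the kinase restrains the ubiquitin ligase NEDD4L, and more epithelial sodium channels (ENaC) remain on the apical membrane. Sodium entry through ENaC drives potassium out through the channels ROMK and BK, while the sodium pump and its FXYD partner clear sodium at the other side of the cell. CTRP1 has been described as a stimulus of aldosterone production in adrenal cells, so the genes below address whether kidneys that lack it differ in the machinery that answers the hormone.

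The response element of the mineralocorticoid and glucocorticoid receptors is the reason why the following sequences are shown. The element was searched as AGAACA, any 3 bases (NNN) and TGTTCT without a gap, which reads the same on both strands, in RefSeq promoter windows of GRCm38.p6 that run from 250 bases before to 50 bases after a gene start. It stood in 3 of 32851 windows (0.00913%), of which 1 belonged to Sgk1, 189 bases before the gene start at which that window was set, and the other windows belonged to Acnat2 and Gm35041. The Sgk1 window was 1 of 6 for that gene, and the element in it lies inside Sgk1 as annotated in GENCODE. Capitals mark the 6-base arms of the element.
Sgk1, chr10:21993693-21993722, + strand: atgcggaaAGAACAgaaTGTTCTcggagat
Acnat2, chr4:49408232-49408261, - strand: tacaaagcAGAACAcaaTGTTCTcttccaa
Gm35041, chr12:76972797-76972826, + strand: aggcccaaAGAACAcggTGTTCTttgggca

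A single arm, AGAACA on either strand, is common and stood in 19.0% of all windows, those with the whole element included. Among the genes described, 7 had at least 1 window, 12 windows in all, and a single arm stood in 3 of the 6 windows of Sgk1 and in the window of Kcnj1. The arms of Kcnj1 begin 190 and 14 bases before the start at which its window was set, which lies inside the gene as annotated in GENCODE, and are shown, again in capitals, for comparison with the paired arms of Sgk1. These letters were not in the windows of Scnn1b, Scnn1g, Nr3c2, Kcnma1 and Fxyd4, and Scnn1a, Hsd11b2 and Nedd4l were not matched to a window. A match describes the sequence and does not show that a receptor binds there.
Kcnj1, chr9:32393783-32393812, + strand: gcatgacttaggAGAACAggaagtgagcta
Kcnj1, chr9:32393959-32393988, + strand: agacttggtctgAGAACAaccacttgtgtt

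C1qtnf1 itself averaged 5.42 ± 0.141 FPKM in the WT mice and 0.61 ± 0.23 FPKM in the KO mice (SD, n = 4 each), and the groups did not overlap, so each library matched its label. FPKM are reads scaled for the length of the gene and the size of the library, and are printed as the authors deposited them. KO replicate 2 stood apart from the other libraries. Its median correlation with them was 0.968 against 0.989 to 0.991 for the others, and 8.74% of its reads fell on mitochondrially encoded genes against 3.02% to 4.85%. Short genes were high in it and long genes low: compared with the mean of the other 3 KO mice, its median log2 deviation was 0.50 over the 1085 tested genes of at most 1000 bp and -0.43 over the 1363 genes longer than 6000 bp. Of the 6 markers of urothelium, which lines the renal pelvis, 5 were tested and 0 passed, but their summed level did not overlap, with 3.46 to 9.27 FPKM in WT mice and 12.6 to 30.2 FPKM in KO over the 6 markers, none of them at 0. The part of these features in the results below was not tested.

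None of the aldosterone-sensitive genes passed the test between KO and WT kidneys. Of the 10 genes, 9 reached a mean of 1 FPKM and were tested, and 0 of these 9 passed at an adjusted p of 0.05 (limma, Benjamini-Hochberg over 12118 genes). Over all genes tested, 0.0413% passed, 0.0165% higher and 0.0248% lower in KO. Without KO replicate 2, 0.173% passed, 0.0743% higher and 0.099% lower, and again 0 of the 9. At an unadjusted p under 0.05 the count among the 9 was again 0, against 5.95% of all genes tested (11.6% without KO replicate 2), and limma-voom on reads recovered from the FPKM also called 0. The FPKM of the 4 KO mice overlapped those of the 4 WT mice in all 10 genes, where 5.3% of the genes tested did not overlap, 2.29% higher and 3.01% lower in KO. The median log2 fold change of the 9 was 0.0037, beside -0.01 over all genes tested. An exact permutation test of 4 against 4 cannot go below p = 0.029, and the lowest p among the 10 genes was 0.114, for Fxyd4 (two-sided).

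**Figure D1:**
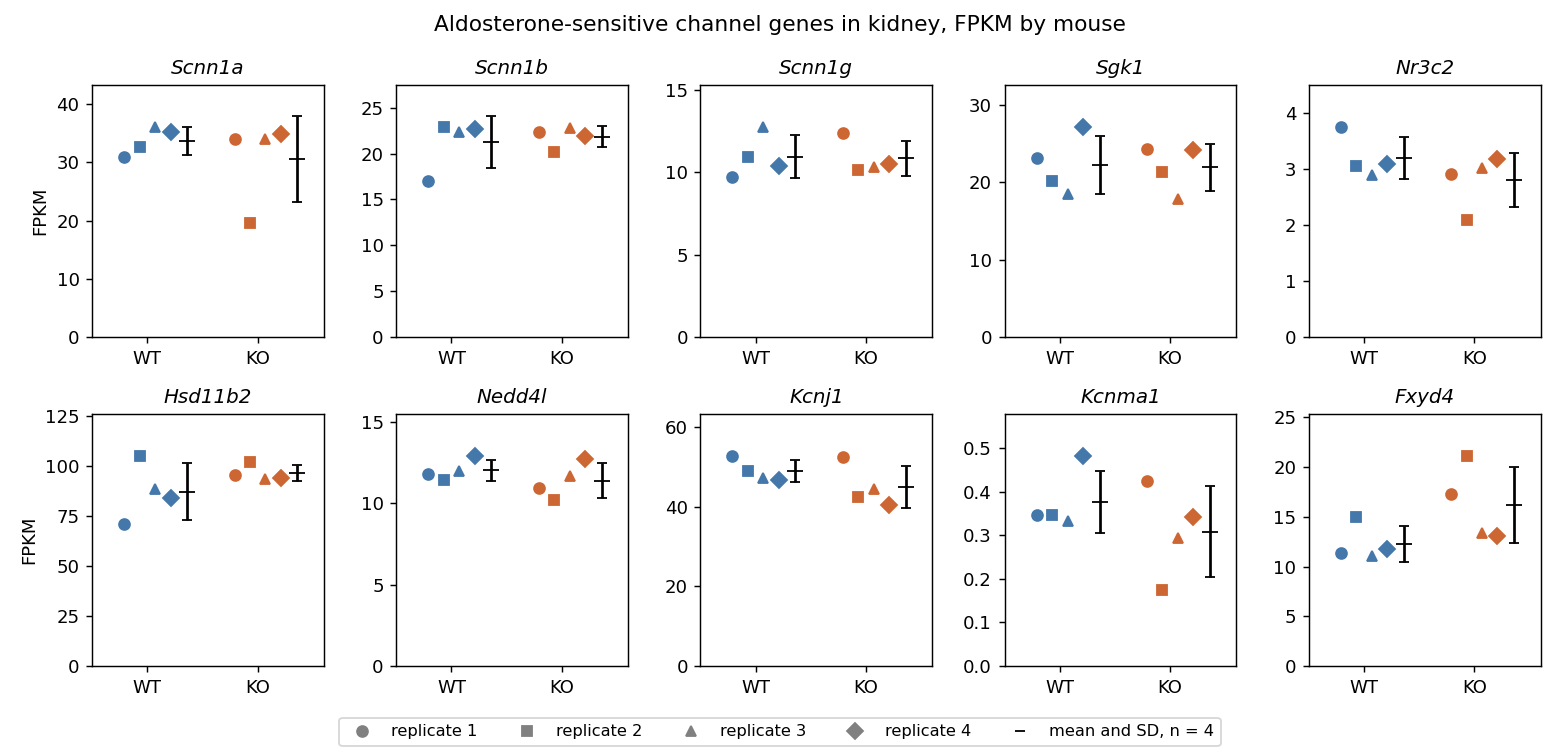
FPKM of each of the 10 genes by mouse, with each axis starting at 0, WT in blue, KO in orange, the replicate given by the symbol, and the mean and SD (n = 4) beside each group. The KO points lie within or across the WT points in every panel, and KO replicate 2 (square) is low for Scnn1a and high for Fxyd4.

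The genes spanned a wide range of levels per length. Hsd11b2 was highest at 91.8 ± 10.8 FPKM over the 8 mice (SD), followed by Kcnj1 at 46.9 ± 4.46 FPKM and Scnn1a at 32.1 ± 5.35 FPKM. Hsd11b2 was above Kcnj1, and Kcnj1 above Scnn1a, in every mouse without overlap of their ranges. Sgk1 (22.1 ± 3.19 FPKM) and Scnn1b (21.5 ± 2.01 FPKM) could not be ordered, since Sgk1 was above Scnn1b in 5 of 8 mice. Scnn1a was above Sgk1, and Scnn1b above Fxyd4, in 7 of 8 mice, with KO replicate 2 the exception both times. Fxyd4 (14.2 ± 3.46 FPKM), Nedd4l (11.7 ± 0.887 FPKM) and Scnn1g (10.9 ± 1.09 FPKM) could not be ordered either, with Fxyd4 above Nedd4l in 5 mice and Nedd4l above Scnn1g in 6 mice. Nr3c2 (2.99 ± 0.454 FPKM) and Kcnma1 (0.343 ± 0.0905 FPKM) closed the order without overlap with their neighbours. The order rests on the gene lengths behind the FPKM, which for Nedd4l (8212 bp) and Kcnma1 (4990 bp) were shorter than the 17659 and 16976 exon bases of GENCODE M21. They were also shorter for other members, among them Sgk1 (3096 against 4903 bp), Fxyd4 (1199 against 1957 bp) and Scnn1a (3499 against 4132 bp). The order at the GENCODE lengths was not worked out and could differ.

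The sodium channel is built from the α, β and γ subunits encoded by Scnn1a, Scnn1b and Scnn1g. Scnn1a, the subunit whose transcription aldosterone is known to raise in the collecting duct, lies on chromosome 6 from 125320659 to 125344943 (mm10). It was at 30.9, 32.6, 36.1 and 35.2 FPKM in WT replicates 1 to 4 and at 34.0, 19.5, 33.9 and 34.8 FPKM in KO replicates 1 to 4. KO replicate 2 was the lowest of all mice, and the other 3 KO mice lay inside the WT range. That library had 1256 reads of Scnn1a, while the other KO libraries had 2130 to 2431. On the log2 scale KO differed from WT by -0.15 ± 0.16 (SE; adjusted p = 0.87 by limma), with a 95% interval of the KO level from 0.71 to 1.15 times WT. Without KO replicate 2 it was 0.02 ± 0.08 (limma adjusted p = 0.96), with an interval from 0.901 to 1.14 times WT.

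Scnn1b and Scnn1g, the subunits of the same channel that lie beside each other on chromosome 7, from 121865038 to 121918514 and from 121734479 to 121768475, overlapped between the genotypes as well. Scnn1b was at 17.0, 22.9, 22.3 and 22.7 FPKM in the WT mice and at 22.4, 20.2, 22.8 and 21.9 FPKM in the KO mice, in replicate order. WT replicate 1 was low and the 7 other mice lay between 20.2 and 22.9 FPKM. The log2 fold change of Scnn1b was 0.07 ± 0.11 (limma adjusted p = 0.92), from 0.879 to 1.25 times WT, and turned to -0.05 without WT replicate 1 (limma adjusted p = 0.95). Scnn1g was at 9.73, 10.9, 12.8 and 10.4 FPKM in the WT mice and at 12.4, 10.1, 10.3 and 10.5 FPKM in the KO mice. KO replicate 1 and WT replicate 3 were the high mice, and the KO values lay inside the WT range. Its log2 fold change was 0.01 ± 0.11 (limma adjusted p = 0.99), from 0.853 to 1.19 times WT, and turned to -0.01 with FPKM as deposited and to -0.06 without WT replicate 1.

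The proportions of the subunit transcripts were alike in 7 of the 8 mice. Scnn1a made up 49.1% to 53.6% of the summed FPKM of the 3 subunit genes in WT mice and 49.5% to 51.8% in KO replicates 1, 3 and 4. In KO replicate 2 it made up 39.2%, and Scnn1b took the largest share with 40.5%. The ratio of Scnn1a to Scnn1b was 1.6 ± 0.162 in WT and 1.39 ± 0.286 in KO, and 0.966 in KO replicate 2. The summed level of the 3 genes was 57.6 to 71.1 FPKM in WT mice and 49.8 to 68.8 FPKM in KO. The ratio of Scnn1b to Scnn1g did not set KO replicate 2 apart, at 2 there against 1.75 to 2.2 in the other mice.

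**Figure D2:**
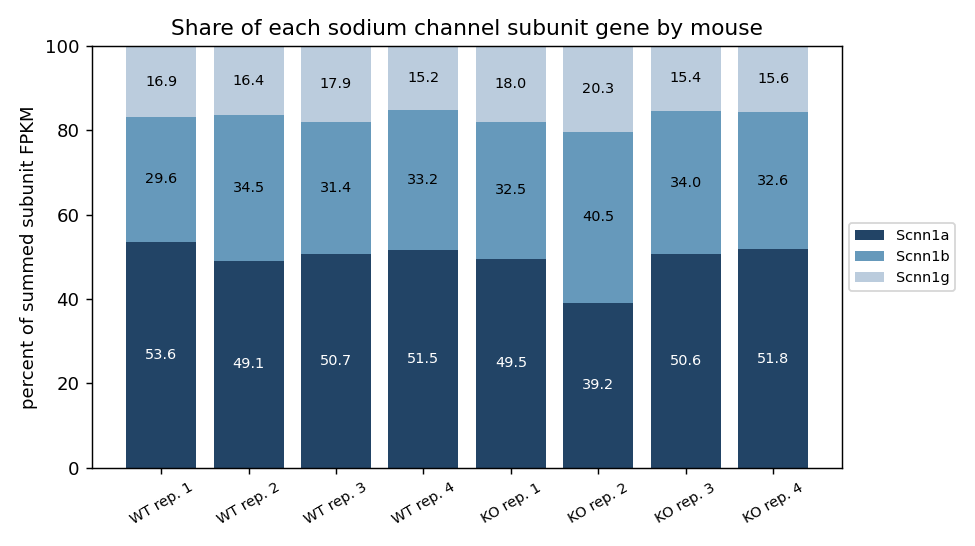
Stacked bars give, for each mouse, the percentage of the summed FPKM of the 3 sodium channel subunit genes that came from Scnn1a, Scnn1b and Scnn1g. Scnn1a holds 49.1% or more in 7 mice and 39.2% in KO replicate 2.

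Scnn1a in KO replicate 2 was also low for a gene of its length. The length behind its FPKM was 3499 bp, and among the 2257 tested genes of 3000 to 4000 bp the median deviation of that library from the other KO mice was -0.09 on the log2 scale, with 5th and 95th percentiles of -0.64 and 0.46. Scnn1a deviated by -0.67 and so lay just beyond the 5th percentile. By definition such a band leaves out the genes at both ends of each class. A member just outside it is therefore not set apart from other genes of its length. Each of the other tested members stood between the 5th and 95th percentiles of its own length class. Kcnma1 was not tested, and on this scale so low a gene could not fall below its band. Fxyd4, the shortest with 1199 bp, deviated by 0.63 where the median of its class was 0.28, and Nr3c2, with 5916 bp, by -0.31 where it was -0.24. KO replicate 2 was the lowest of the 8 mice for 4 of the 10 members and for 42.5% of the genes tested.

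**Figure D3:**
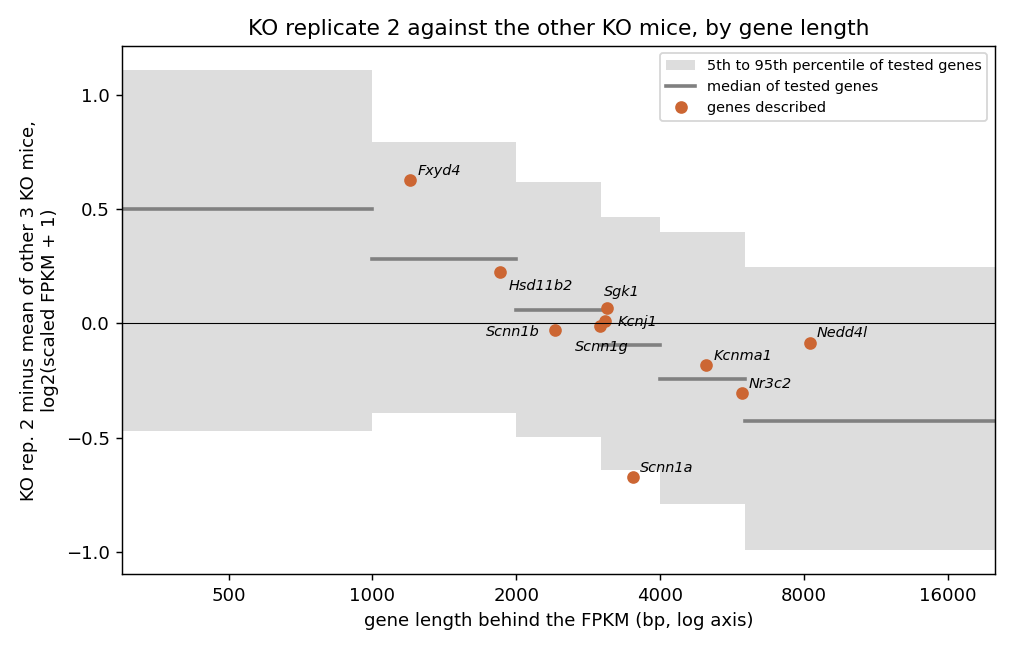
Deviation of KO replicate 2 from the mean of the other 3 KO mice in log2(scaled FPKM + 1), against the gene length behind the FPKM on a log axis. Grey lines and bands are the median and the 5th to 95th percentiles of the tested genes per length class, and the medians fall from 0.50 to -0.43. Orange points are the 10 genes, of which Scnn1a lies just below its band, which by definition leaves out genes at both ends. Kcnma1, which was not tested, is too low to fall below its band on this scale.

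The hormone receptor and its guard enzyme had overlapping levels in the genotypes. Nr3c2, which encodes the mineralocorticoid receptor on chromosome 8 (76899442 to 77245012), was at 3.74, 3.05, 2.88 and 3.07 FPKM in the WT mice and at 2.9, 2.09, 3.02 and 3.17 FPKM in the KO mice. WT replicate 1 was high, KO replicate 2 low, and the remaining 6 mice lay between 2.88 and 3.17 FPKM. Its log2 fold change was -0.13 ± 0.10 (limma adjusted p = 0.86), with an interval from 0.778 to 1.07 times WT in FPKM + 1. It was -0.06 without KO replicate 2 (limma adjusted p = 0.85) and -0.08 without WT replicate 1. With less compression of low levels it was -0.17 (pseudocount of 0.1) and -0.18 (limma-voom on recovered reads). Of its 6474 exon bases, 247 are shared with Gm10649 on the opposite strand. Hsd11b2, also on chromosome 8 (105518755 to 105523988), was at 70.8, 105, 88.8 and 84.3 FPKM in the WT mice and at 95.8, 102, 93.5 and 94.0 FPKM in the KO mice. The KO mice lay within the WT range and closer together, with an SD of 4.06 FPKM against 14.2 FPKM. The log2 fold change of Hsd11b2 was 0.18 ± 0.13 (limma adjusted p = 0.86), from 0.923 to 1.38 times WT, and 0.07 without WT replicate 1 (limma adjusted p = 0.95), 0.12 without KO replicate 2 and 0.27 without WT replicate 2. Among the members, WT replicate 1 was the lowest mouse for Hsd11b2, Scnn1b and Scnn1g, and it was the lowest for 9.28% of all genes tested.

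Sgk1, the aldosterone-induced kinase, varied more among mice of a genotype than between genotypes. Located on chromosome 10 (21882184 to 21999903), it was at 23.2, 20.2, 18.5 and 27.1 FPKM in the WT mice and at 24.3, 21.3, 17.9 and 24.2 FPKM in the KO mice. WT replicate 4 was the highest and KO replicate 3 the lowest. Its log2 fold change was 0.0037 ± 0.13 (limma adjusted p = 0.99), from 0.818 to 1.23 times WT, and turned to -0.02 with FPKM as deposited and to -0.01 without KO replicate 2. The coefficient of variation was 17.0% in WT and 13.9% in KO, where counting error alone gives 2.72% and 2.81%. Nedd4l, the ligase that marks ENaC for removal, on chromosome 18, was at 11.8, 11.4, 12.0 and 12.9 FPKM in the WT mice and at 10.9, 10.2, 11.6 and 12.7 FPKM in the KO mice. It was the steadiest of the 10 genes in WT, with a coefficient of variation of 5.28%, and its log2 fold change was -0.06 ± 0.09 (limma adjusted p = 0.9), from 0.843 to 1.1 times WT. It was -0.02 without WT replicate 4, -0.03 without KO replicate 1, -0.04 without KO replicate 2 and -0.10 without KO replicate 4. Nedd4l shares 277 exon bases with the antisense gene A330084C13Rik. The ratio of Sgk1 to Nedd4l was 1.85 ± 0.242 in WT and 1.94 ± 0.298 in KO.

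Other genes that corticosteroid receptors are known to induce were set beside Sgk1, and the following 4 were picked from their list after their values were seen. Fkbp5, an immunophilin that tempers glucocorticoid receptors, was at 40.1, 22.6, 24.3 and 64.6 FPKM in the WT mice and at 42.2, 24.3, 40.0 and 49.7 FPKM in the KO mice. Zbtb16, a zinc finger transcription factor, was at 4.80, 1.46, 3.29 and 9.45 FPKM in the WT mice and at 4.79, 0.842, 2.32 and 7.18 FPKM in the KO mice. WT replicates 1 and 4 and KO replicates 1 and 4 were the 4 highest mice for Sgk1, for Fkbp5 and for Zbtb16, although WT replicate 1 and KO replicate 3 were nearly level for Fkbp5. For the clock gene Per1 the highest mice were KO replicate 4, at 16.1 FPKM, and WT replicate 4, at 15.9 FPKM, and for Tsc22d3, which encodes the leucine zipper protein GILZ, they were WT replicate 4 and KO replicate 2, at 27.2 and 27.1 FPKM. Of the other genes on that list, Cdkn1a had the same 4 highest mice as Sgk1. Klf9 and Dusp1 were highest in KO replicate 2 and Errfi1 in KO replicate 3, so the order was not shared by the list.

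**Figure D4:**
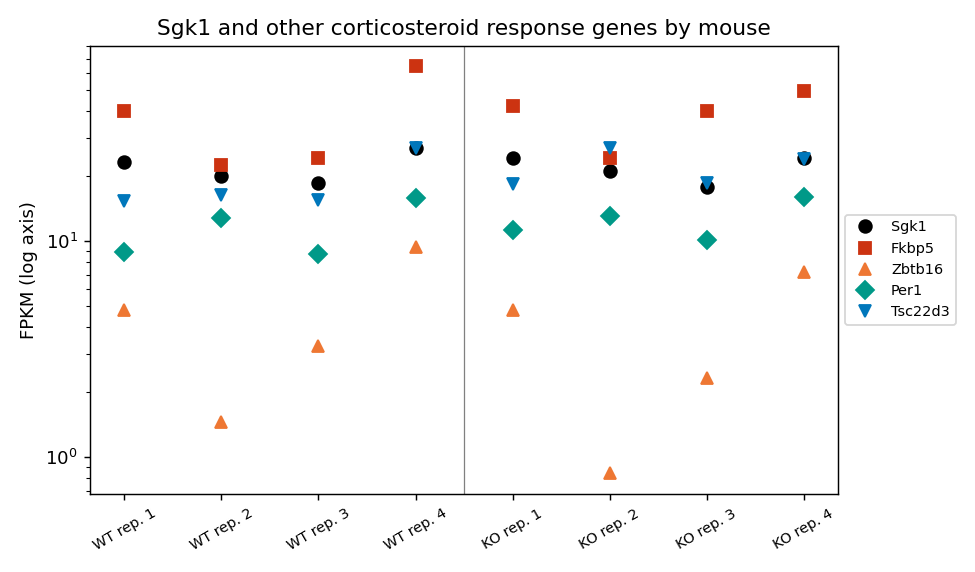
FPKM on a log axis of Sgk1, Fkbp5, Zbtb16, Per1 and Tsc22d3 in each mouse, with the 4 WT mice left of the line and the 4 KO mice right of it. Zbtb16 runs from 0.842 to 9.45 FPKM and Sgk1 from 17.9 to 27.1 FPKM, and WT replicate 4 is highest in Sgk1, Fkbp5 and Zbtb16.

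Of 14 listed genes for corticosteroid receptors, enzymes and responses, 13 were tested and 0 passed in either direction. Their log2 fold changes were positive in 11 and negative in 2, with a median of 0.14, beside -0.01 over all genes. An unadjusted limma p under 0.05 was found for 2 of the 13, beside 5.95% of all genes tested. The lowest p in the list belonged to Fkbp4, a cochaperone of steroid receptors, averaging 122 ± 2.05 FPKM in WT mice and 139.5 ± 8.69 FPKM in KO (limma adjusted p = 0.75), with each KO mouse above each WT mouse. Klf9, a glucocorticoid-induced repressor, was at 74.2 ± 11.6 FPKM in WT mice and 89.9 ± 5.88 FPKM in KO (limma adjusted p = 0.78), with overlapping groups. The glucocorticoid receptor gene Nr3c1 was at 14.0 ± 1.64 and 13.0 ± 1.56 FPKM. Immediate early and heat shock genes, which respond within minutes to stress, had a summed level of 80.1 to 102 FPKM in WT mice and 137 to 286 FPKM in KO over 10 genes, with the maximum in KO replicate 2, where Sgk1 was inside the WT range, and 0 of the 8 tested passed.

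Among 17 listed proteases and regulators of ENaC, 16 were tested, 0 rose and 0 fell by the test, and the median log2 fold change was 0.01. Prss8, the channel-activating protease prostasin, was abundant at 241 ± 36.0 FPKM in WT mice and 243 ± 13.6 FPKM in KO. WT replicate 1 was the lowest mouse for it, at 190.1 FPKM. The genes with the lowest p were Nedd4, a ligase related to NEDD4L, at 69.8 ± 4.07 and 59.4 ± 11.6 FPKM, and Spint2, an inhibitor of such proteases, at 244 ± 8.18 and 290.3 ± 51.0 FPKM (limma adjusted p = 0.85 for each). KO replicate 2 was the lowest mouse for Nedd4, at 42.1 FPKM, and the highest for Spint2, at 365 FPKM. Without it the log2 fold changes of both moved from -0.23 to -0.10 and from 0.26 to 0.11.

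The potassium channel genes did not pass the test either. Kcnj1, which encodes ROMK and is expressed in the thick ascending limb as well as in principal cells, lies on chromosome 9 (32372493 to 32399197). It was at 52.8, 49.0, 47.2 and 46.8 FPKM in the WT mice and at 52.4, 42.4, 44.4 and 40.4 FPKM in the KO mice. KO replicates 2, 3 and 4 were below all WT mice and KO replicate 1 was above 3 of them. The log2 fold change was -0.11 ± 0.09 (limma adjusted p = 0.86), from 0.809 to 1.07 times WT, and -0.11 without KO replicate 2 (limma adjusted p = 0.65). It was -0.17 without KO replicate 1 and -0.05 without KO replicate 4. Beside it, the 5 thick ascending limb markers, none at 0, had 1 positive and 4 negative fold changes, 0 past the threshold and a median of -0.21 (-0.11 without KO replicate 2 and -0.12 without WT replicate 1). Their summed level was 1594 to 1882 FPKM in WT mice and 1187 to 1635 FPKM in KO. Egf, a growth factor made in that segment and the next, was at 330.4 ± 17.2 and 271 ± 55.8 FPKM (limma adjusted p = 0.82), and Umod, which encodes the urinary protein uromodulin, at 1182 ± 114 and 1009 ± 132 FPKM (limma adjusted p = 0.86). The part of that segment in the level of Kcnj1 was not tested.

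Kcnma1, the pore subunit of the BK channel, lies on chromosome 14 (23289431 to 24014491) and was barely detected. It was at 0.346, 0.346, 0.334 and 0.483 FPKM in the WT mice and at 0.426, 0.174, 0.294 and 0.341 FPKM in the KO mice, which rest on 32 to 49 and on 16 to 38 reads. KO replicate 2 was lowest and WT replicate 4 highest. Counting error alone gives a coefficient of variation of 16.4% in WT, where 18.7% was observed. In KO it gives 18.7%, where 34.0% was observed. Under the filter on low values it had no test. With no filter its log2 fold change was -0.07 ± 0.08 (limma adjusted p = 0.86), on a scale that compresses changes of so low a gene. Of its exon bases, 1016 are shared with 4930519K11Rik on the opposite strand. Kcnmb1, the BK subunit of smooth muscle, was at 0.213 ± 0.053 and 0.195 ± 0.0163 FPKM, while the summed level of the 5 smooth muscle markers, none at 0, was 36.8 to 45.6 FPKM in WT mice and 43.1 to 56.2 FPKM in KO.

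Of 13 other potassium channel genes 6 were tested, all 6 with negative fold changes and 0 past the threshold, and the median was -0.12 (-0.04 without KO replicate 2). Lrrc52, at -0.01, turned to 0.02 without KO replicate 2, while the others stayed negative. Kcnj15 was at 212 ± 9.23 and 190 ± 33.0 FPKM (limma adjusted p = 0.86) and Kcnj10, a basolateral channel of the distal convoluted tubule, at 13.2 ± 0.747 and 11.8 ± 2.53 FPKM (limma adjusted p = 0.87). Both had their lowest value in KO replicate 2, at 141 and 8.19 FPKM. Lrrc26, which encodes an auxiliary subunit that lets BK channels open at lower voltage, was below the filter and is named because its groups did not overlap. It had 2, 4, 4 and 0 reads in the WT mice and 14, 24, 7 and 13 reads in the KO mice. With no filter on low values its log2 fold change was 0.57 ± 0.14 (limma unadjusted p = 0.0031, adjusted p = 0.57), and it did not pass.

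Fxyd4, the sodium pump partner of the collecting duct also called CHIF, came nearest to a difference. It lies on chromosome 6 (117933559 to 117937692) and was at 11.4, 15.0, 11.1 and 11.8 FPKM in the WT mice and at 17.3, 21.1, 13.3 and 13.1 FPKM in the KO mice. KO replicates 1 and 2 were above all WT mice, while KO replicates 3 and 4 were above 3 WT mice and below WT replicate 2. The log2 fold change was 0.38 ± 0.17 (limma unadjusted p = 0.05, adjusted p = 0.82), with an interval from 1.00 to 1.68 times WT. Without KO replicate 2 it was 0.22 ± 0.12 (limma adjusted p = 0.52), with an interval from 0.97 to 1.39 times WT. Fxyd2, the γ subunit of the renal sodium pump, was at 3187 ± 265 and 3611 ± 606 FPKM, and Fxyd4 amounted to 0.336% to 0.46% of it in WT and 0.392% to 0.529% in KO.

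Of 11 other sodium pump subunits and FXYD genes, 8 were tested, 5 with positive and 3 with negative fold changes, 0 past the threshold and a median of 0.04. Fxyd1 (phospholemman) was at 5.4 ± 0.808 and 6.63 ± 1.81 FPKM and Fxyd6 at 2.24 ± 0.227 and 1.92 ± 0.257 FPKM (limma adjusted p = 0.86 for each). The β subunit gene Atp1b1 was at 1053 ± 25.3 and 1042 ± 69.8 FPKM.

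**Figure D5:**
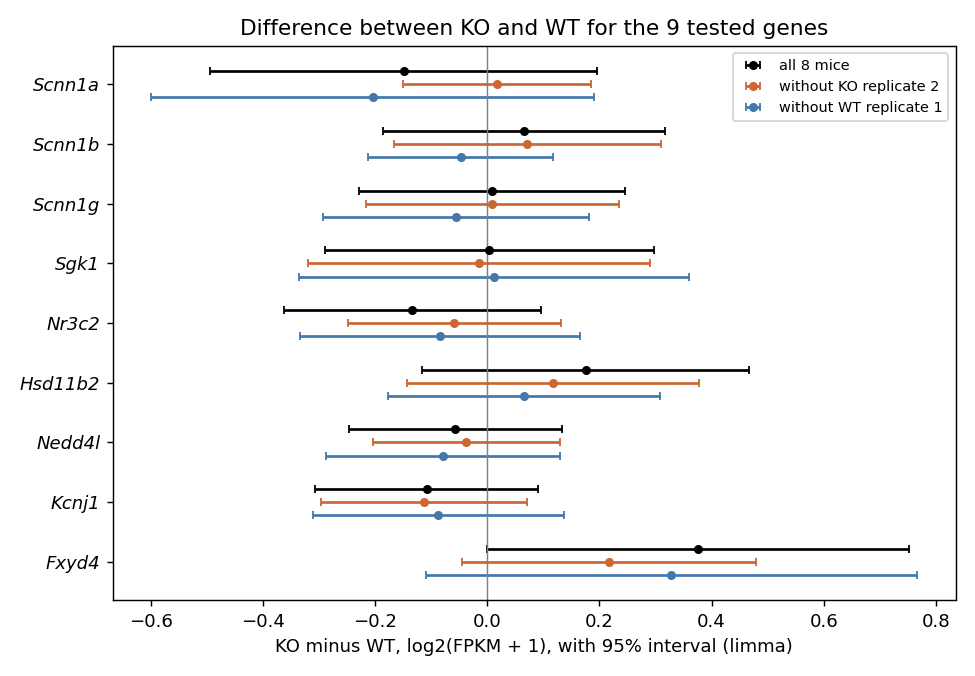
KO minus WT differences in log2(FPKM + 1) with 95% limma intervals for the 9 tested genes, from all 8 mice (black), without KO replicate 2 (orange) and without WT replicate 1 (blue). The intervals from all 8 mice reach 0 for each of the 9 genes, and leaving out KO replicate 2 moves Scnn1a from -0.15 to 0.02 and Fxyd4 from 0.38 to 0.22.

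Markers of the principal cells that hold most of these genes were read beside them. Aqp2, the vasopressin-regulated water channel, was at 183, 242, 222 and 166 FPKM in the WT mice and at 306, 364, 228 and 353 FPKM in the KO mice. Its KO values were above all WT values except in KO replicate 3, and its log2 fold change was 0.63 ± 0.18 (limma adjusted p = 0.57). Gata3, a transcription factor of the collecting duct, was at 4.83 ± 0.264 and 6.15 ± 0.364 FPKM without overlap (limma adjusted p = 0.54). Aqp3, the basolateral water channel of the same cells, was at 74.7 ± 11.7 and 71.3 ± 2.52 FPKM. Over the list of 7 markers, 5 were tested, 3 had positive and 2 negative fold changes, 0 passed, and the median was 0.20. Leaving out single mice moved that median to between 0.11, without WT replicate 2, and 0.31, without KO replicate 3, and it was 0.13 without WT replicate 4. The summed level, most of which was Aqp2 in every mouse, was 266 to 368 FPKM in WT mice and 339 to 473 FPKM in KO. Fxyd4 was 4.98% to 7.11% of the Aqp2 level in WT and 3.71% to 5.85% in KO, and these ranges overlapped. Avpr2, the vasopressin receptor, was at 0 to 0.039 FPKM, but 2347 of its 2886 exon bases are shared with Arhgap4 on the opposite strand, and how reads of such shared bases were assigned is not given in the labels.

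Neighbouring cell types were measured for the same reason. Over the 7 intercalated cell markers, none at 0, 3 fold changes were positive and 4 negative, 0 passed, and the summed level was 107 to 116 FPKM in WT mice and 99.97 to 116 FPKM in KO. Foxi1 was at 9.2 ± 0.39 and 7.89 ± 1.39 FPKM and the proton pump gene Atp6v1g3 at 10.8 ± 1.1 and 12.9 ± 4.4 FPKM. Of the 5 markers of the distal convoluted tubule, none at 0, 2 were positive and 3 negative, 0 passed, and the sum was 383 to 444 FPKM in WT mice and 255 to 463 FPKM in KO. The thiazide-sensitive transporter gene Slc12a3 was at 324 ± 25.3 and 277 ± 86.4 FPKM, with 151 FPKM in KO replicate 2, and the magnesium channel gene Trpm6 at 2.9 ± 0.22 and 2.55 ± 0.465 FPKM (limma adjusted p = 0.86 for each). Of the 5 proximal tubule markers 1 was positive and 4 negative, 0 passed, with a median of -0.17 that became 0.02 when KO replicate 2 was left out, and with Slc5a12 at 86.1 ± 8.79 and 66.0 ± 19.2 FPKM. Among 6 adrenal cortex markers Cyp11b2, which encodes aldosterone synthase, was listed at 0 in all libraries, and Cyp11b1 was listed at 0 in 7 and at 0.0317 FPKM in KO replicate 4.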

How the data were processed

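Per the file headers, the deposited table names each mouse but no unit. Its values were read as FPKM made by the authors, since the deposited columns are not whole, differ in total and rise in steps that shrink with gene length. The build was mm10 and the tools were STAR 2.5, HTSeq 0.6.1, CASAVA and DESeq2, per the submitters' processing notes. For the strand setting and annotation release, the sources used here give nothing. Per the labels, poly-A RNA was sequenced.

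Library totals and reads per gene were recovered from the FPKM steps, with a fitted length per gene. All 22945 genes above 0 came out whole within 0.002 reads, 5865 of them at the exon length of GENCODE M21. With library totals shifted slightly, 0 of 500 control genes did. Trimmed means of M values from these reads gave scaling factors of 0.936 to 1.05. limma 3.58.1 (R 4.3.3, statmod 1.5.0; trend and robust options) tested log2(scaled FPKM + 1) for the 12118 genes with a mean of at least 1 FPKM, with Benjamini-Hochberg adjustment at 0.05. Fold changes and the intervals given as times WT are on that scale and understate changes of low genes. The procedure was run on simulated reads with the same spread in every library and none like KO replicate 2, so that run does not measure how it performs here. Each library is a different mouse, and intervals from reads cover counting error only.

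The members, the lists and the tests were chosen with earlier results of these data known, as was the rule for named genes (all members; up to 4 called genes or the 2 with the lowest p per list; the 3 genes most like Fxyd4, Sgk1 and Kcnj1; C1qtnf1, Aqp2 and Kcnmb1). Other genes named were chosen after their values were seen, as were the length classes. Alternatives were other scalings, filters and pseudocount, limma-voom, array weights and leaving out each mouse.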

Additional observations from a re-analysis of the deposited data

Results flagged for a closer look

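In each group of 4 mice, the gap between the most extreme mouse and its nearest neighbour was compared with the whole range, for 20 groups over the 10 genes. A gap beyond Dixon's 95% critical value appears by chance in about 1 of 20 groups. Scnn1a in KO replicate 2, at 19.5 FPKM, stood apart from the other KO mice with a ratio of 0.944. Scnn1b in WT replicate 1, at 17.0 FPKM, stood apart from the other WT mice with a ratio of 0.902. Kcnma1 in WT replicate 4, at 0.483 FPKM, stood apart with a ratio of 0.915, on 49 reads against 32 to 35 in the other WT mice.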

How the results depend on the processing

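The number of the 10 genes called was 0 under all 15 alternatives. Kcnma1 could be called only with no filter or with a minimum mean of 0.1 FPKM, since it was left out elsewhere. Over all genes, 2 were called higher and 3 lower in KO; array weights, which gave KO replicate 2 a weight of 0.1, called 30 and 29, and leaving out 1 mouse at a time called 2 to 17 higher (17 without KO replicate 3) and 1 to 12 lower (12 without KO replicate 2). Under all 15, 5 genes kept their sign while the size moved by over 1.5 times: Hsd11b2 (0.06 to 0.27), Fxyd4 (0.18 to 0.47), Nr3c2 (-0.18 to -0.04), Nedd4l (-0.10 to -0.02) and Kcnj1 (-0.17 to -0.05). Scnn1a ranged from -0.21 to 0.02 when single mice were left out, turning only without KO replicate 2, and Scnn1b from -0.05 to 0.10, turning only without WT replicate 1. Scnn1g turned to -0.01 with FPKM as deposited and -0.04 with array weights, and ranged from -0.06 to 0.09 when single mice were left out. Sgk1 turned to -0.02 and -0.09 under the same settings and ranged from -0.06 to 0.10. No paired analysis was possible because replicate numbers only name the mice. Depth limited Kcnma1 and Lrrc26, with at most 49 reads per library.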

Other observations

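Among 11276 other tested genes with a usual symbol, the 3 with the highest correlation over the 8 mice were listed for Fxyd4, Sgk1 and Kcnj1. As the highest of so many genes they carry no p-value. For Fxyd4 they were Papss1 (Pearson r = 0.961, Spearman rho = 0.857), Hist3h2a (r = 0.961, rho = 0.881) and Parp8 (r = 0.959, rho = 0.857). Without the 2 mice farthest from the median, KO replicates 1 and 2, these r were 0.759, 0.841 and 0.872. For Sgk1 they were Srbd1 (r = 0.943, rho = 0.976), Cwc22 (r = 0.935, rho = 0.762) and Mettl15 (r = 0.876, rho = 0.905), and r was 0.819, 0.808 and 0.615 without WT replicate 4 and KO replicate 3. For Kcnj1 they were Zc3h14 (r = 0.949, rho = 0.881), Ddx42 (r = 0.926, rho = 0.81) and Thumpd1 (r = 0.918, rho = 0.881), and r was 0.869, 0.89 and 0.949 without KO replicates 1 and 4.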
